A study of Mus musculus with 12 samples.

Results

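Selective autophagy receptors are adaptor proteins that hold a cargo with one surface and the LC3 and GABARAP proteins of the growing autophagosome membrane with another, so that the cargo is enclosed and degraded together with the receptor. Sqstm1 (also called p62), Nbr1, Optn and Tax1bp1 bind ubiquitin chains on protein aggregates, damaged mitochondria or bacteria. Calcoco1 acts in the turnover of endoplasmic reticulum and Golgi membrane, Ncoa4 carries ferritin, the iron store, to the lysosome, and Bnip3, Bnip3l (also called Nix) and Fundc1 sit in the outer mitochondrial membrane and recruit the autophagosome without ubiquitin. The proteins are themselves consumed by autophagy, which makes their protein level a common readout of autophagy. The data here are RNA only, and the receptor proteins were not measured in them.

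These 9 genes were taken by name, without use of their values, out of 14851 genes listed for 562 cells, and all 9 passed the filter on low values in every comparison. 562 cells are a spontaneously immortalized line grown from cutaneous vascular tumors of a tamoxifen-treated Tsc1 f/f;Scl-Cre mouse on a C57BL/6 background. The Cre is driven from the Scl promoter, which is active in endothelial cells, and all 4 groups share the Tsc1 deletion of the tumor line, although the labels give the control genotype as wildtype and the tissue as lymphatic endothelial cells. Control cells carried a guide RNA against EGFP, and the KO cells carried guides against Rb1cc1 (the gene of FIP200, part of the complex that starts autophagosome formation), Atg5 or Atg7 (both needed to couple LC3 to membrane lipid), each delivered by lentiviral CRISPR-Cas9 and followed by puromycin selection. The study made Fip200 KO cells with 2 different guides, and the labels do not say from which of them each library came. Each group had 3 libraries, the age of the donor mouse and the number of clones behind each library were not given in the labels, and the 3 control libraries served in every comparison, so the 3 KO comparisons are not independent of each other. The labels do not say whether the libraries of a group came from separate cultures, and p-values measure the spread between these libraries only. Atg5 KO replicates 1 and 2 were more alike than any other pair within a group, with a chi-square of their reads per degree of freedom of 8.70 against 51.6 to 317, where sampling noise alone gives about 1.

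The libraries held between 17266926 and 23629730 reads on the listed genes. Values are RPKM, that is reads scaled by gene length and by library size, so levels can be compared between genes. RNA of the targeted gene was called lower in 1 of the 3 KO groups, namely Atg7 in Atg7 KO cells with 5.40, 2.64 and 8.34 RPKM against 18.4, 25.0 and 19.8 in control. Atg7 RNA was also lower than in control in Atg5 KO cells, with 9.99, 11.9 and 9.94 RPKM, past the limit on p but not on size (log2 -0.95, limma adjusted p = 0.0083). Under the other settings of the fit that kept all libraries, this limma adjusted p was up to 0.409, past which the limit was missed. Atg7 RNA was at 38.3, 12.4 and 8.23 RPKM in Fip200 KO cells, the last below the highest Atg7 KO library. Rb1cc1 in Fip200 KO cells and Atg5 in Atg5 KO cells overlapped control, and a frameshift need not lower the RNA. The 8 endothelial markers summed to between 1059 and 2911 RPKM, with the lowest sum in control replicate 2, and of the 4 lymphatic markers Lyve1 was between 60.6 and 393, Pdpn between 51.5 and 336, Flt4 between 31.7 and 101 and Prox1, a defining factor of lymphatic endothelium, between 0.037 and 5.79 RPKM. Control replicate 2 also had the highest sum of the 6 of 7 fibroblast and mural markers in the table, 213 RPKM against between 0.677 and 40.9 in the other libraries, and Fip200 KO replicate 1 had 263 RPKM of the macrophage marker Cd68 against at most 91.7 elsewhere, while Ptprc, another of the 3 of 5 blood cell markers in the table and a defining one, was at most 0.13. Cd68 was also called lower in 2 KO groups, with a log2 difference of -2.26 in Atg5 KO cells and of -1.70 in Atg7 KO cells (limma adjusted p = 0.0064 and 0.0798). Of the endothelial markers, Cdh5, Kdr and Egfl7 were called higher in Atg5 KO cells, with log2 differences of 1.28, 1.35 and 1.16 (limma adjusted p = 0.0376, 0.0878 and 0.0825), and Flt1 was called lower in Fip200 KO and Atg7 KO cells, with -3.66 and -2.99 (limma adjusted p = 0.0995 and 0.0196). Lyve1 was called higher in Atg5 KO cells and in Atg7 KO cells, with 1.25 and 1.11 (limma adjusted p = 0.0480 and 0.0947), and the fibroblast marker Dcn was called lower in the mean of the KO groups, with -3.25 (limma adjusted p = 0.0432). In that mean Cdh5 and Lyve1 were also called higher and Flt1 lower. Of all these marker calls, only those of Cd68 in Atg5 KO cells and of Flt1 in Atg7 KO cells held with any 1 library left out. Without control replicate 2 the calls of Cdh5, Kdr and Egfl7 in Atg5 KO cells were lost (log2 0.85, 0.81 and 0.64), as were those of Lyve1 and Dcn, of Cdh5 in the mean (log2 0.66, limma adjusted p = 0.205), of Cd68 in Atg7 KO cells (limma adjusted p = 0.172) and of Flt1 in Fip200 KO cells (limma adjusted p = 0.352). The calls of Cd68 in Atg7 KO cells and of Flt1 in Fip200 KO cells were also lost without either other control library, Atg7 KO replicate 1 for the first and Fip200 KO replicate 1 or 2 for the second, and that of Flt1 in the mean without control replicate 3 (limma adjusted p = 0.121). The part of these marker differences in the results on the receptors was not tested. The library names in the labels carry 3 different prefixes: the first on control replicate 1 and all Fip200 KO libraries, the second on control replicates 2 and 3 and Atg5 KO replicates 1 and 2, and the third on Atg5 KO replicate 3 and all Atg7 KO libraries. What the prefix stands for is not given.

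Sqstm1 was the most abundant receptor RNA in control cells. Its level there was 359, 579 and 374 RPKM, higher than 99.1% of all listed genes by its median, and it made up between 30.2% and 71.0% of the summed RPKM of the 9 receptors over the 12 libraries. Bnip3 followed with 104, 115 and 130 RPKM, and neither of these overlapped its lower neighbor in the order. Tax1bp1, Bnip3l, Optn, Nbr1 and Ncoa4 came next with control medians of 54.1, 50.2, 41.0, 31.0 and 28.8 RPKM, and each of them overlapped its neighbor in this order, although the lowest control library of Tax1bp1, with 49.6 RPKM, lay above all those of Optn, Nbr1 and Ncoa4. Calcoco1 with a median of 15.8 RPKM and Fundc1 with 10.2 RPKM were the lowest, and each lay below all control libraries of the receptor above it. Even Fundc1 exceeded 59.6% of the listed genes. Sqstm1 was also first in 8 of the 9 KO libraries, the exception being Fip200 KO replicate 2 with 194 RPKM of Sqstm1 and 200.2 of Bnip3.

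Receptors also differed in how much their replicates varied. The SD of log2(RPKM + 0.5) within groups was 0.67 for Bnip3, 0.58 for Sqstm1 and 0.54 for Optn, against a median of 0.32 over all tested genes. For Ncoa4, Tax1bp1 and Nbr1 it was 0.21, 0.21 and 0.23, so a smaller difference can be seen for these genes than for Bnip3 or Sqstm1. Over all 12 libraries the highest level was 5.94 times the lowest for Optn, the widest range of the 9, and 1.66 times for Ncoa4, the narrowest.

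Each receptor was compared with control by limma on log2(RPKM + 0.5) within a fit of all tested genes. A gene was called where its Benjamini-Hochberg adjusted p was 0.1 or less and its log2 difference was 1 or more in size. Of the 9 receptors, 0 were called in Fip200 KO cells, where 1.98% of 11803 tested genes were called and 1.64% were called lower. There 1 receptor had an unadjusted limma p under 0.05, and limma voom on recovered reads also called 0. The calls over all genes in Fip200 KO cells rested on single libraries, since 193 lower and 41 higher genes became 0 and 0 without control replicate 2 or control replicate 3, and 429 and 169 without Fip200 KO replicate 3, with 0 receptors called in each of these fits. In Atg5 KO cells 1 receptor, Optn, was called lower, against 11.2% of 11833 tested genes called and 6.94% called lower. In Atg7 KO cells Optn was again the 1 receptor called lower, against 10.1% of 11784 called and 6.81% called lower. For the mean of the KO groups it was Optn once more, against 8.23% of 12233 called and 5.86% called lower.

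At the limit on p alone, 0 receptors passed in Fip200 KO cells, against 2.05% of the tested genes in either direction and 1.69% lower. In Atg5 KO cells Optn and Fundc1 passed, 2 of 9 and both lower, against 41.5% in either direction and 18.7% lower. In Atg7 KO cells Optn and Nbr1 passed, 2 of 9 and both lower, against 25.1% and 13.7%. For the mean of the KO groups Optn alone passed, against 28.2% and 14.5%. Whether these shares differ between the receptors and the other genes was not tested.

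Libraries of KO and control did not overlap for 2 receptors in Fip200 KO cells, 4 in Atg5 KO cells and 2 in Atg7 KO cells, against 24.1%, 50.4% and 39.6% of the tested genes. Optn was the 1 receptor of the 9 with all 9 KO libraries below all controls, as were 7.28% of the tested genes. The median log2 difference of the 9 receptors was -0.23 in Fip200 KO cells, -0.32 in Atg5 KO cells and -0.17 in Atg7 KO cells, where the median over all tested genes was 0.02, 0.06 and -0.01. In each KO comparison at least 6 of the 9 differences were below 0. In bulk RNA, fewer cells of a type and less RNA per cell cannot be told apart.

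**Figure D1:**
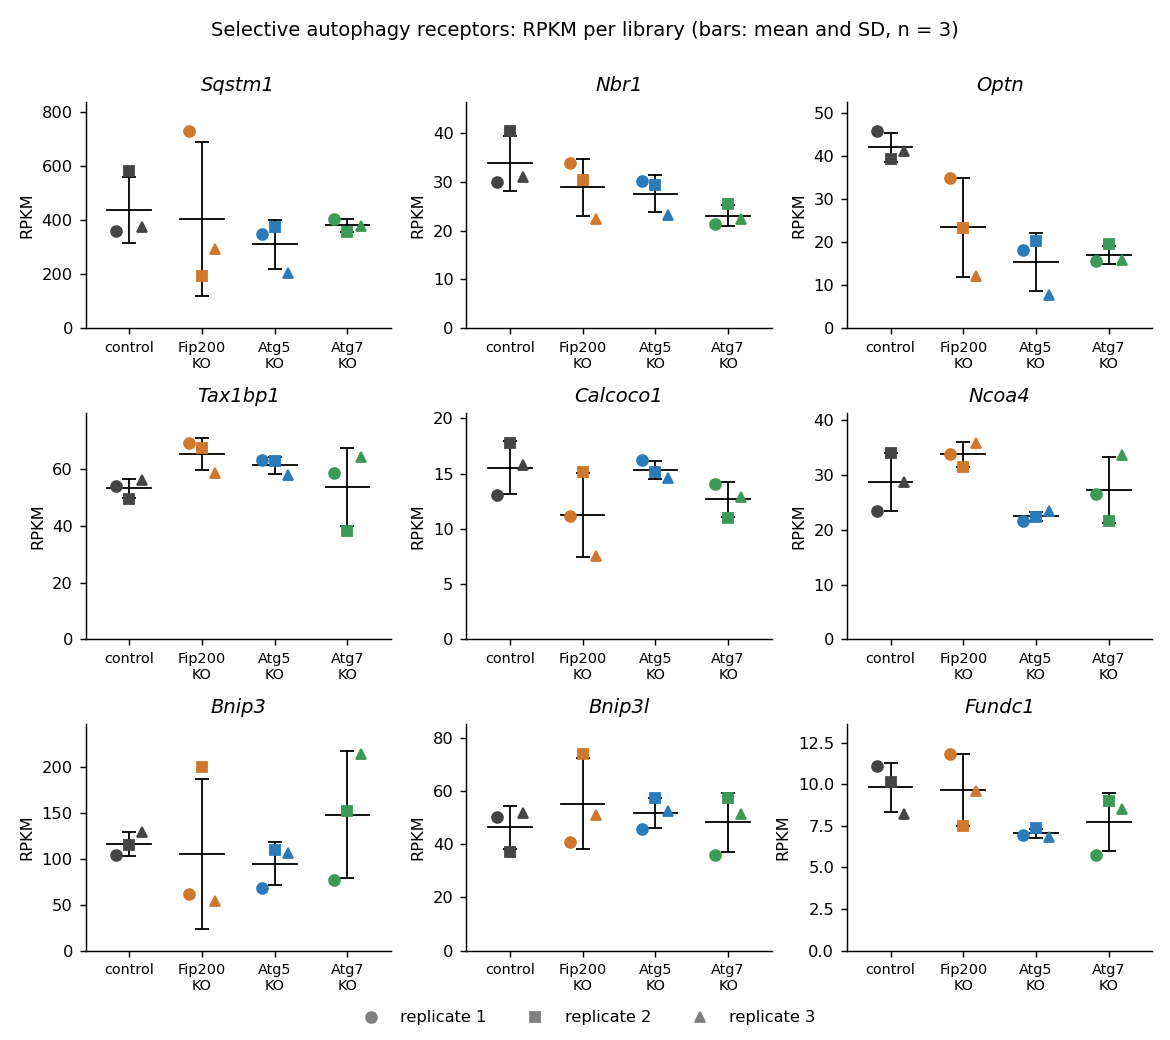
RPKM (y axis, from 0) of each receptor in the control group and the 3 KO groups (x axis); points are libraries, marked by replicate, and black bars are the mean and SD of 3 libraries. Optn was lower in all 9 KO libraries than in the lowest control library, which had 39.2 RPKM, while Sqstm1 and Bnip3 spread widely within the Fip200 KO group.

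**Figure D2:**
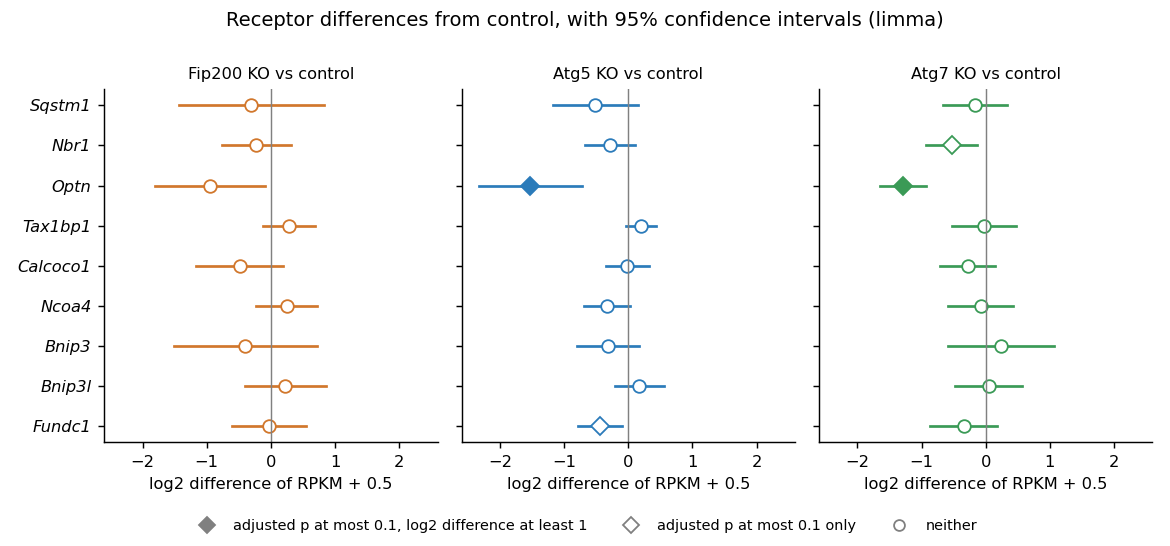
Difference of log2(RPKM + 0.5) from control (x axis) with its 95% confidence interval for each receptor (y axis) in each of the 3 KO groups, 3 libraries against 3. Filled diamonds passed both limits and open diamonds the limit on adjusted p only; Optn is the filled diamond in Atg5 KO and Atg7 KO cells, and all 4 diamonds lie below 0.

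Optn (Entrez Gene 71648), the receptor that TBK1 phosphorylates and that brings ubiquitin-coated mitochondria and bacteria to the autophagosome, was the receptor with the largest difference from control in all 3 KO groups. Its promoter is shown because it was the only receptor called in any comparison; the window runs from 250 bases before to 50 bases after an annotated start of the gene, on the minus strand of chr2:5064068-5064367 in GRCm38.p6 (RefSeq), and capitals mark each match to ACGTG or GCGTG, the core letters of the hypoxia response element, on either strand.
Optn promoter: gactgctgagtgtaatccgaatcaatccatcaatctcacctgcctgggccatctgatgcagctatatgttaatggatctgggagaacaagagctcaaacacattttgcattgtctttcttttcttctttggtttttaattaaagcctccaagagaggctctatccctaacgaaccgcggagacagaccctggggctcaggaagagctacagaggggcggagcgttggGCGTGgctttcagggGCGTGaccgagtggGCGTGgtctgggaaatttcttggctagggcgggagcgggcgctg
The 3 matches all lie close to the start on which the window is placed, while the outermost end of Optn in RefSeq, position 5064399, lies upstream of the window. One or more matches to these letters occurred in 43.8% of the 32851 promoters of the same length, and a match to TGANNNNGC, the core of the antioxidant response element that NRF2 binds, which the Optn window also holds, in 41.3%, so both are common.

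Optn stood at 45.6, 39.2 and 41.0 RPKM in control, a mean of 41.9 ± 3.31 (SD, n = 3). It stood at 34.9, 23.1 and 12.03 RPKM in Fip200 KO cells, a mean of 23.4 ± 11.4. Atg5 KO cells had 18.2, 20.3 and 7.69 RPKM, a mean of 15.4 ± 6.76. All of these KO libraries lay below all controls, with Fip200 KO replicate 1 nearest to control and Atg5 KO replicate 3 farthest. In Atg7 KO cells the level was 15.6, 19.4 and 15.9 RPKM, a mean of 16.9 ± 2.15, again below all controls and with the least spread of the 3 KO groups.

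In the limma comparison with control Optn fell 2.88-fold in Atg5 KO cells, a log2 difference of -1.53 with an SE of 0.34 and a Benjamini-Hochberg adjusted p of 0.0194. It fell 2.44-fold in Atg7 KO cells, with a log2 difference of -1.29, an SE of 0.15 and a limma adjusted p of 0.00879. In Fip200 KO cells the log2 difference was -0.95 with an SE of 0.36, and the limma adjusted p of 0.270 did not pass the limit of 0.1. Over the mean of the 3 KO groups the log2 difference was -1.26 with an SE of 0.32 and a limma adjusted p of 0.0241. An exact two-sided permutation test gave p = 0.1 for each KO group, the smallest that 3 against 3 libraries allow, and p = 0.00909 for the 9 KO against the 3 control libraries, the smallest for that design, a test that takes the 3 KO groups as alike.

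The library-name prefix and the groups overlapped only in part. Among the libraries with the first prefix, 3 Fip200 KO libraries lay below the 1 control by a log2 of -1.08. Among those with the second, 2 Atg5 KO libraries lay below 2 controls by -1.04. Atg7 KO and control cells shared no prefix, so prefix and group cannot be told apart in that comparison. With the prefix as a term of a 12-library fit, the log2 difference was -1.04 in Atg5 KO cells (limma adjusted p = 0.185), -0.69 for the mean of the KO groups (limma adjusted p = 0.294) and 0.04 with an SE of 0.61 in Atg7 KO cells (limma adjusted p = 0.989). The calls of Optn thus did not hold in that fit. There Atg7 KO cells were tied to control only through Atg5 KO replicate 3, which had the lowest Optn level of the 12 libraries. The Atg5 KO value came from the libraries with the second prefix only, and was still past the limit on size. Without control replicate 2 the log2 difference was -1.57 in Atg5 KO cells (limma adjusted p = 0.0453) and -1.33 in Atg7 KO cells (limma adjusted p = 0.0419). In Fip200 KO cells it was -1.30 without Fip200 KO replicate 1 (limma adjusted p = 0.126). Over all fits that left out 1 library, the Fip200 KO difference ran from -1.30 to -0.55, with limma adjusted p of up to 0.664. With any 1 library left out, both calls held, with a limma adjusted p of 0.010 to 0.0603 in the Atg5 KO comparison and of 0.00855 to 0.0604 in the Atg7 KO comparison.

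**Figure D3:**
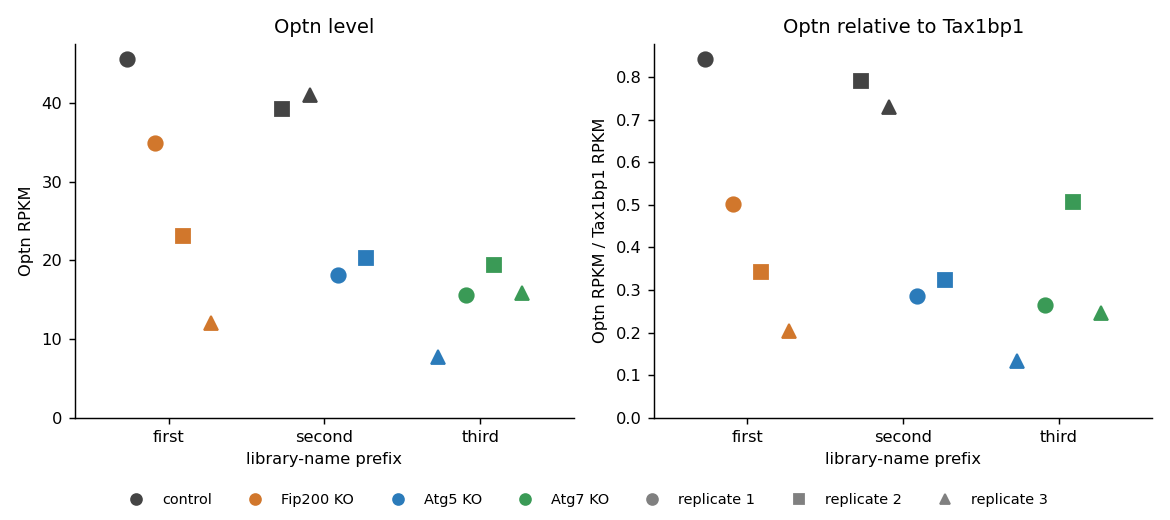
Optn RPKM (left) and Optn RPKM divided by Tax1bp1 RPKM (right), both from 0, for libraries grouped by library-name prefix (x axis); colors are groups and marker shapes are replicates. Within the first and second prefix the KO libraries lie below the controls; the third holds no control.

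Relative to Tax1bp1, a ubiquitin-binding receptor that works beside it, Optn was at 0.843, 0.790 and 0.730 of the Tax1bp1 level in control and between 0.133 and 0.507 in the KO libraries. This ratio does not depend on the scaling of the libraries, and the groups did not overlap. Optn lay below all controls in all 9 KO libraries and Tax1bp1 above all controls in 8 of them, so this separation is not a separate check. Relative to Sqstm1 the separation was not complete: Sqstm1 RPKM was 7.88, 14.8 and 9.12 times Optn RPKM in control and between 8.38 and 26.8 times in the KO libraries. Fip200 KO replicate 2, where Sqstm1 was lowest, lay among the controls by this ratio.

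The genes whose profile over the 12 libraries was most like that of Optn, out of 12233 genes, were Hmox1 (heme oxygenase), Rras (a small GTPase of endothelial cells) and Arnt2 (a partner of hypoxia-inducible factors). Likeness was the root mean square difference of log2(RPKM + 0.5) after centering each gene, and was 0.26 for Hmox1, 0.27 for Rras and 0.27 for Arnt2. Hmox1, among the most abundant RNAs of these cells, stood at 2011, 1871 and 1419 RPKM in control and between 494 and 1301 in the KO libraries, lowest in Atg5 KO replicate 3 like Optn itself. Rras was at 77.4, 80.5 and 70.8 RPKM in control and between 21.7 and 44.4 in the KO libraries. Arnt2 was at 2.85, 2.13 and 3.32 RPKM in control and between 0.381 and 1.51 in the KO libraries. In all 3 of them, as in Optn, every KO library lay below every control, which is a description of how they were chosen.

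**Figure D4:**
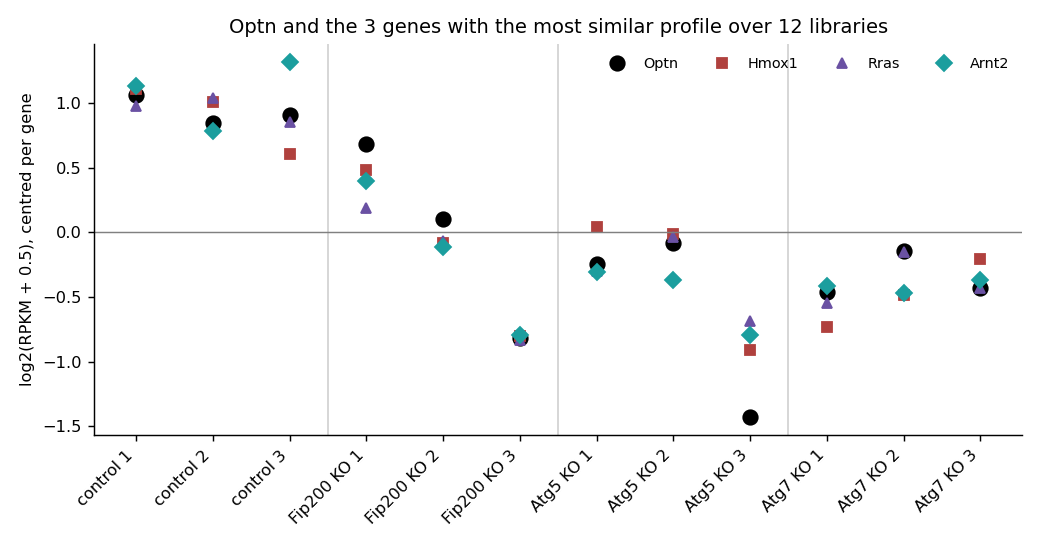
Centered log2(RPKM + 0.5) (y axis) of Optn, Hmox1, Rras and Arnt2 in each of the 12 libraries (x axis); each point is 1 library and vertical lines part the groups. All 4 genes were highest in the control libraries, and Atg5 KO replicate 3 was the lowest library for Optn, Hmox1 and Arnt2.

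Sqstm1 (Entrez Gene 18412), which gathers ubiquitin-coated proteins into condensates and also binds KEAP1, showed no difference that passed the test in any KO. After 359, 579 and 374 RPKM in control it was at 727, 194 and 292 RPKM in Fip200 KO cells. It was at 349, 373 and 206 RPKM in Atg5 KO cells. Fip200 KO libraries included both the highest and the lowest level of all 12, and control replicate 2 was the highest control. In Atg7 KO cells it was at 403, 357 and 379 RPKM, close together and within the control range except for the lowest. The log2 differences from control were -0.30 (95% confidence interval from -1.44 to 0.83), -0.51 (from -1.18 to 0.16) and -0.17 (from -0.67 to 0.33), with limma adjusted p between 0.205 and 0.779. The intervals leave room for a change of more than 2-fold downward in Fip200 KO and Atg5 KO cells. The highest level came from the library with most Cd68 RNA, and without that library the log2 difference in Fip200 KO cells was -0.84 (limma adjusted p = 0.221), whereas without Fip200 KO replicate 2 it was 0.11. The part of other cells in these levels was not tested.

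Nbr1 (Entrez Gene 17966), a relative of Sqstm1 that joins it in condensates, was at 29.9, 40.3 and 31.0 RPKM in control and at 21.3, 25.4 and 22.4 RPKM in Atg7 KO cells. The Atg7 KO libraries lay below all controls. The log2 difference of -0.53 (SE 0.17) had a limma adjusted p of 0.0770, which passed the limit on p but not the limit of 1 on the size of the log2 difference. It was -0.40 with a limma adjusted p of 0.192 without control replicate 2, the highest control. The limit was also missed without either other control library and without Atg7 KO replicate 1 or 3, with limma adjusted p up to 0.202, under the replicate block (limma adjusted p = 0.105) and with the prefix as a term (log2 -0.26, limma adjusted p = 0.858). In Fip200 KO cells Nbr1 was at 33.8, 30.3 and 22.4 RPKM and in Atg5 KO cells at 30.1, 29.4 and 23.1 RPKM. Both groups overlapped control, with log2 differences of -0.23 and -0.29 and limma adjusted p of 0.638 and 0.220. The genes most like Nbr1 over the 12 libraries were Erlec1, Ube2b and Wbp2, with root mean square differences of 0.12, 0.12 and 0.13.

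Tax1bp1 (Entrez Gene 52440), which recruits FIP200 to ubiquitin-coated cargo, was the steadiest of the ubiquitin-binding receptors. It was at 54.1, 49.6 and 56.1 RPKM in control and at 69.4, 67.5 and 58.8 RPKM in Fip200 KO cells. Atg5 KO cells had 63.4, 62.8 and 57.9 RPKM. These 6 libraries all lay above the controls, yet the log2 differences of 0.29 and 0.20 did not pass the test (limma adjusted p = 0.439 and 0.167). Atg7 KO cells had 58.5, 38.3 and 64.3 RPKM, on both sides of control, and a log2 difference of -0.02 with a 95% confidence interval from -0.52 to 0.48.

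Calcoco1 (Entrez Gene 67488), a receptor for endoplasmic reticulum and Golgi membrane, was at 13.0, 17.8 and 15.8 RPKM in control and at 11.1, 15.1 and 7.54 RPKM in Fip200 KO cells. It was at 16.2, 15.1 and 14.6 RPKM in Atg5 KO cells and at 14.1, 11.0 and 12.9 RPKM in Atg7 KO cells. All 3 KO groups overlapped control. The log2 differences were -0.49, -0.01 and -0.28, with limma adjusted p between 0.313 and 0.955, and the interval in Atg5 KO cells ran from -0.35 to 0.32.

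Ncoa4 (Entrez Gene 27057), the ferritin receptor, had means on opposite sides of the control mean in Fip200 KO and Atg5 KO cells, without passing the test. The Fip200 KO libraries overlapped control. It was at 23.3, 33.9 and 28.8 RPKM in control and at 33.8, 31.4 and 35.9 RPKM in Fip200 KO cells. In Atg5 KO cells it was at 21.7, 22.4 and 23.3 RPKM, closely spaced and just below the lowest control, and in Atg7 KO cells at 26.5, 21.6 and 33.6 RPKM. The log2 differences from control were 0.24, -0.33 and -0.08, with limma adjusted p of 0.569, 0.136 and 0.820. Between Atg5 KO and Fip200 KO cells the libraries did not overlap and the log2 difference was -0.57 with an SE of 0.19, but the limma adjusted p was 0.530 over all genes tested. The Atg5 KO difference from control passed the limit on p under scaling by median of ratios (log2 -0.39, limma adjusted p = 0.0986) and without control replicate 1 (log2 -0.47, limma adjusted p = 0.0374).

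Ferritin RNA, whose protein is the cargo of Ncoa4, was among the most abundant in the cells. Fth1, the heavy chain, was at 1985, 3688 and 2280 RPKM in control, at 3641, 2173 and 905 in Fip200 KO cells, at 1580, 1763 and 1819 in Atg5 KO cells and at 1980, 1690 and 1954 in Atg7 KO cells. Its log2 differences were -0.41, -0.57 and -0.45 and did not pass the test (limma adjusted p = 0.728, 0.110 and 0.260). Ftl1, the light chain, passed the limit on p in Atg5 KO cells with a log2 difference of -0.70 (SE 0.20, limma adjusted p = 0.0385; up to 0.121 without Atg5 KO replicate 1 or 2), while its differences of -0.56 and -0.60 in Fip200 KO and Atg7 KO cells had limma adjusted p of 0.550 and 0.258. Of the 10 genes listed for ferritin and iron handling, 1 was lower and 4 were higher at the limit on p in Atg5 KO cells, and 1 was higher in Atg7 KO cells, beside the shares of all tested genes of 18.7% lower and 22.9% higher in the first and 11.3% higher in the second. In Fip200 KO cells limma passed 0 of them, as did voom, and 1 had an unadjusted p under 0.05. Pcbp2, a cytosolic iron chaperone and RNA-binding protein, was higher in Atg5 KO (log2 0.69) and Atg7 KO cells (log2 0.82), with limma adjusted p of 0.010 and 0.0325, the second of which was 0.132 without control replicate 3. RefSeq names 2 pseudogenes after Ftl1 and 1 after Ncoa4, and how reads shared with such copies were counted is not given.

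Bnip3 (Entrez Gene 12176), a mitochondrial receptor and a well-known target of hypoxia-inducible factors, varied widely within the Fip200 KO and Atg7 KO groups. It was at 104, 115 and 130 RPKM in control and at 61.7, 200.2 and 54.3 RPKM in Fip200 KO cells. In Atg5 KO cells it was at 67.9, 109.9 and 106 RPKM and in Atg7 KO cells at 76.8, 153 and 215 RPKM. Fip200 KO and Atg7 KO libraries lay on both sides of all controls, Atg5 KO libraries among or below them. The log2 differences were -0.40, -0.32 and 0.23 with limma adjusted p of 0.699, 0.265 and 0.669, and the 95% confidence intervals from -1.51 to 0.72 in Fip200 KO cells and from -0.59 to 1.06 in Atg7 KO cells cover changes of 2-fold. With 1 library left out, the difference in Fip200 KO cells ranged from -0.99 to -0.057. RefSeq places 1 pseudogene over Bnip3, so its reads could be shared, and names 1 after Bnip3l. The Bnip3 promoter is shown for comparison with that of Optn since it holds the most matches to ACGTG or GCGTG, again in capitals, of the 12 windows listed for 8 of the 9 receptors; it lies on the minus strand of chr7:138909457-138909756 in GRCm38.p6 (RefSeq).
Bnip3 promoter: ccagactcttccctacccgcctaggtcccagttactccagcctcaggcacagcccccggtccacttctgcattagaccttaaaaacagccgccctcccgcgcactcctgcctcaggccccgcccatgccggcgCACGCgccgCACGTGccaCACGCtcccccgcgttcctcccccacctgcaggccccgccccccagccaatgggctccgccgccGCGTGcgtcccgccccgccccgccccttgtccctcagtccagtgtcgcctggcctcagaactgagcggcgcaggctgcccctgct
Its 5 matches include both strands of a CACGTG, the E-box, which 7.15% of all promoters of this length hold and which overlaps the hypoxia core. Sqstm1 had 0 matches, and Bnip3l has no entry in the promoter table.

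Bnip3l (Entrez Gene 12177), the related receptor that clears mitochondria from maturing red cells, was at 50.2, 37.0 and 51.6 RPKM in control and at 40.7, 74.0 and 50.9 RPKM in Fip200 KO cells. It was at 45.6, 57.1 and 52.3 RPKM in Atg5 KO cells and at 36.0, 57.2 and 51.4 RPKM in Atg7 KO cells. All groups overlapped. The log2 differences of 0.22, 0.17 and 0.05 had limma adjusted p between 0.453 and 0.900. Bnip3 RPKM was between 2.07 and 3.11 times Bnip3l RPKM in control and between 1.07 and 4.19 times in the KO libraries, which took in the whole control range.

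Fundc1 (Entrez Gene 72018), whose binding to LC3 is set by phosphorylation under normal oxygen, was at 11.1, 10.2 and 8.22 RPKM in control and at 6.93, 7.36 and 6.85 RPKM in Atg5 KO cells. The Atg5 KO libraries were tightly grouped below all controls. The log2 difference was -0.44 with an SE of 0.14, and its limma adjusted p of 0.0584 passed the limit on p but not that on size. It was -0.41 with a limma adjusted p of 0.111 without control replicate 2 and -0.33 with a limma adjusted p of 0.537 when the prefix was a term. The limit was also missed without control replicate 1 or any 1 Atg5 KO library, with limma adjusted p up to 0.168. Fundc1 was at 11.8, 7.52 and 9.60 RPKM in Fip200 KO cells and at 5.72, 9.01 and 8.48 RPKM in Atg7 KO cells. These overlapped control, with log2 differences of -0.04 and -0.34 and limma adjusted p of 0.954 and 0.320. The genes most like Fundc1 were Tom1l2, Slc22a5 and Ascc1, with root mean square differences of 0.12, 0.12 and 0.13.

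Differences between the KO groups were tested in 1 fit of all 12 libraries. By limma 0 of the 9 receptors passed the limit on p for any of the 3 pairs, where 0.0% of 12233 genes passed for each pair, and voom also passed 0 receptors. That share over all genes rested on Fip200 KO replicate 3, without which 135 genes were called lower and 165 higher for Atg5 KO against Fip200 KO, and 203 lower and 199 higher for Atg7 KO against Fip200 KO, with 0 receptors among them. An unadjusted p under 0.05 was seen for 1 receptor, Ncoa4 in Atg5 KO against Fip200 KO, and for 0 receptors in the other pairs. For Optn the log2 difference was -0.57 between Atg5 KO and Fip200 KO cells (95% confidence interval from -1.42 to 0.28), -0.33 for Atg7 KO against Fip200 KO (from -1.18 to 0.52) and 0.24 between Atg7 KO and Atg5 KO cells (from -0.61 to 1.09). That Optn was called in Atg5 KO and Atg7 KO but not in Fip200 KO cells is therefore not shown to be a difference between the KO groups.

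Beyond the 9, a list of 23 other cargo receptors, 22 of them in the table, held the largest difference of any listed receptor in each KO comparison. Retreg1 (FAM134B), which fragments and delivers endoplasmic reticulum sheets to autophagy, was at 14.9, 14.96 and 22.8 RPKM in control. It was at 7.12, 3.45 and 5.89 RPKM in Fip200 KO cells, at 5.28, 6.11 and 3.03 in Atg5 KO cells and at 2.92, 2.78 and 3.93 in Atg7 KO cells. All 9 KO libraries lay below all controls. Retreg1 fell 3.07-fold in Fip200 KO cells, 3.45-fold in Atg5 KO cells and 4.81-fold in Atg7 KO cells, with limma adjusted p of 0.0864, 0.00756 and 0.0072. With the prefix as a term its log2 differences were -1.42 in Fip200 KO and -1.56 in Atg7 KO cells with limma adjusted p of 0.390 and 0.402. The call in Fip200 KO cells was lost without any 1 control library or Fip200 KO replicate 2, with limma adjusted p up to 0.480, while those in Atg5 KO and Atg7 KO cells held with any 1 library left out.

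Of the tested genes of that list, 1 of 22 was called in Fip200 KO cells, 2 of 21 in Atg5 KO cells and 2 of 21 in Atg7 KO cells, all lower, beside 1.64%, 6.94% and 6.81% of all tested genes called lower. At the limit on p alone, 7 were lower and 2 higher in Atg5 KO cells, where 18.7% and 22.9% of all tested genes were, and 6 were lower and 0 higher in Atg7 KO cells, where 13.7% and 11.3% were. The second call in Atg5 KO cells was Stbd1, a glycogen-binding receptor, at 0.691, 3.09 and 0.739 RPKM in control and at most 0.440 in Atg5 KO cells, with a log2 difference of -1.27 (limma adjusted p = 0.0782) that missed the limit without any 1 Atg5 KO library. Stbd1 passed the filter on low values only through the 3 controls and was not tested without any 1 of them, so its call gives no support to a difference. The second in Atg7 KO cells was Hdac6, a deacetylase that carries ubiquitin-coated aggregates along microtubules, with -1.04 (limma adjusted p = 0.0287, and 0.118 without control replicate 3), and was under the limit on size, at -0.90 and -0.95, without control replicate 2 and without Atg7 KO replicate 1. The mitochondrial protein Nlrx1 passed the limit on p in both, with -0.96 and -0.92 (limma adjusted p = 0.0189 and 0.0746), the second of which missed it without any 1 library other than Atg7 KO replicate 2. The list's median log2 difference was -0.14, -0.15 and -0.23 in the Fip200, Atg5 and Atg7 KO comparisons, beside 0.02, 0.06 and -0.01 over all tested genes.

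**Figure D5:**
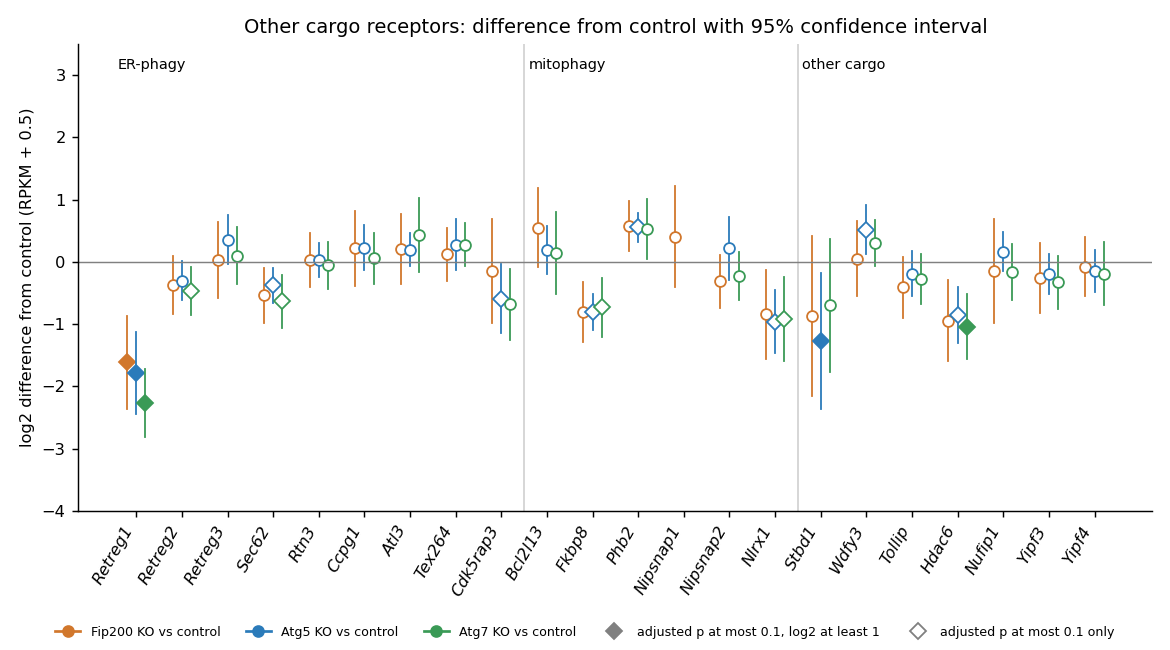
Difference of log2(RPKM + 0.5) from control (y axis) with its 95% confidence interval for 22 other cargo receptors (x axis, grouped by cargo) in each of the 3 KO groups; 3 libraries per group. Filled diamonds passed both limits and open diamonds the limit on adjusted p only. Retreg1 is the only one of them called in all 3 KO groups, and Nipsnap1 passed the filter on low values in the Fip200 KO comparison but not in the other two.

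The LC3 and GABARAP genes, whose proteins the receptors bind, were all 5 measured. Map1lc3b, the usual LC3, was at 106, 110.2 and 137 RPKM in control, and its log2 difference was -0.50 in Atg5 KO cells (limma adjusted p = 0.0651) and -0.63 in Atg7 KO cells (limma adjusted p = 0.0724), past the limit on p but not on size. In Fip200 KO cells it was -0.32 with a limma adjusted p of 0.475. Map1lc3a was called lower in Atg5 KO cells with -1.10 (limma adjusted p = 0.0921), and Gabarap passed the limit on p in Atg7 KO cells with -0.40 (limma adjusted p = 0.0975). Each of these calls missed the limit in at least 3 of the 6 fits that left out 1 library, control replicate 3 in each case among them, with limma adjusted p of up to 0.264. By its median log2 difference the list stood at -0.32, -0.35 and -0.48 in the 3 comparisons.

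Of 23 measured kinases, phosphatases and ubiquitin enzymes that act on receptors or their cargo, 5 were lower and 7 higher at the limit on p in Atg5 KO cells, and 4 were lower and 6 higher in Atg7 KO cells. Over all tested genes the shares were 18.7% lower and 22.9% higher in the first comparison and 13.7% and 11.3% in the second. In Fip200 KO cells 0 passed by limma or voom, and 1 had an unadjusted p under 0.05. The median log2 difference of the list was -0.01, 0.16 and -0.01 in the 3 comparisons. Tbk1, the kinase of Optn, Sqstm1 and Tax1bp1, was at 27.0, 15.6 and 19.9 RPKM in control and between 30.4 and 32.5 RPKM in Atg5 KO cells, where it passed the limit on p with a log2 difference of 0.62 (limma adjusted p = 0.0510, and up to 0.141 without control replicate 3 or any 1 Atg5 KO library). Its differences of 0.49 in Fip200 KO cells and 0.30 in Atg7 KO cells did not (limma adjusted p = 0.507 and 0.396). Optn and the RNA of its kinase thus stood on opposite sides of control in Atg5 KO cells. Ulk1, the kinase that FIP200 binds and that phosphorylates Fundc1, was the one member called, in Atg7 KO cells with a log2 difference of -1.06 (limma adjusted p = 0.0127). There 6.81% of all tested genes were called lower. Among the members past the limit on p, the largest differences below that size were -0.71 for Otud4 in Atg5 KO cells and 0.77 for Trim21 in Atg7 KO cells (limma adjusted p = 0.00700 and 0.0609), the second of which missed the limit without any 1 control library or Atg7 KO replicate 1 or 3.

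Targets of hypoxia-inducible factors and of NRF2 were listed because Bnip3 belongs to the first and Sqstm1 to the second. Of 10 hypoxia targets other than Bnip3, 2 were called lower in Atg5 KO cells and 4 in Atg7 KO cells, and 0 were called higher, where 6.94% and 6.81% of all tested genes were called lower. Ddit4, an inhibitor of mTORC1 signaling, fell by 1.83 on the log2 scale in Atg5 KO cells and by 1.97 in Atg7 KO cells (limma adjusted p = 0.0145 and 0.0193). Vegfa, the endothelial growth factor, fell by 1.26 in Atg5 KO cells (limma adjusted p = 0.0169), although without control replicate 2 its difference of -0.99 was under the limit on size. Car9, a carbonic anhydrase, fell by 1.56 in Atg7 KO cells (limma adjusted p = 0.0515, and up to 0.145 without control replicate 2 or 3 or Atg7 KO replicate 1). The call of Vegfa in Atg7 KO cells (log2 -1.20, limma adjusted p = 0.0591) was lost without control replicate 2 or 3 or Atg7 KO replicate 1 or 2, with values of up to 0.158, so 2 of the 4 calls there did not hold without control replicate 2 or without control replicate 3. Of 10 NRF2 targets, the same 3 were called lower in Atg5 KO cells and in Atg7 KO cells, namely Hmox1, Slc7a11 (the cystine transporter) and Osgin1, and 0 were called higher, while at the limit on p alone 2 were higher in Atg5 KO cells and 1 in Atg7 KO cells, beside 22.9% and 11.3% of all tested genes. The Slc7a11 call in Atg7 KO cells (limma adjusted p = 0.0403) was lost without control replicate 2 or 3 or Atg7 KO replicate 3, with values of up to 0.137. Under the limit on size were also Hmox1 in Atg5 KO cells without Atg5 KO replicate 3 (log2 -0.90) and Osgin1 in Atg7 KO cells without control replicate 2 (log2 -0.91) or Atg7 KO replicate 3 (log2 -0.98). The hypoxia list had a median log2 difference of -0.30, -0.30 and -0.16 in the 3 comparisons and the NRF2 list one of -0.23, -0.13 and 0.03. In Fip200 KO cells limma and voom passed 0 genes of either list, and 1 hypoxia and 2 NRF2 targets had an unadjusted p under 0.05. Bnip3 and Sqstm1 did not pass the test in any of the comparisons where members of these lists did. With the prefix as a term, the calls of the genes named from these lists that still passed the limit were those of Retreg1 and Map1lc3a in Atg5 KO cells and of Retreg1 in the mean of the KO groups. Their log2 differences were -1.62, -1.12 and -1.53, with limma adjusted p of 0.0481, 0.0628 and 0.0413. Of the marker calls, those of Kdr and Egfl7 in Atg5 KO cells and of Dcn in the mean still passed in that fit (limma adjusted p = 0.0798, 0.0826 and 0.0121). Those of Cd68 in Atg5 KO cells and of Flt1 in Atg7 KO cells did not, with log2 differences of -1.82 and -0.58 (limma adjusted p = 0.396 and 0.927). The NRF2 targets called in Atg7 KO cells, Hmox1, Slc7a11 and Osgin1, stood at log2 differences of -0.36, -1.29 and -0.24 in that fit (limma adjusted p = 0.882, 0.815 and 0.949). The call of the targeted gene Atg7 in Atg7 KO cells did not pass in it (limma adjusted p = 0.589).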

How the data were processed

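RNA of 562 cells was sequenced from directional libraries in 4 groups of 3, and groups were taken from the sample labels. The authors trimmed adapters, aligned reads with TopHat2 and counted reads on known transcripts with Bioconductor packages, while versions, genome build, annotation and the use of strand in counting are not given in the sources used here. The deposited tables, 1 for each comparison with control, hold values per library that fit RPKM by their steps, so the unit was read from the values and is not named in the headers. Group means of a scaled read signal, averaged over 3 libraries by the authors, were used only to check the recovery of reads. Columns of the authors' own fold changes, p-values and adjusted p-values were not used.

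RPKM values are whole multiples of the worth of 1 read, which gave back reads for 14851 of 14851 genes and between 17266926 and 23629730 reads per library. Of these genes, 19 were multiplied so that group means matched a whole multiple within a tolerance of 0.01. RPKM + 0.5 was taken to log2, genes with RPKM of at least 0.5 in at least 3 libraries of a fit were kept, and limma with a trended prior was fitted to the 6 libraries of a KO and control, or to all 12 for the mean of the KO groups and for KO against KO. This replaced a count test because the deposited values are not counts. The Benjamini-Hochberg adjustment ran over all tested genes, with an adjusted p of 0.1 and a log2 difference of 1 as limits. On simulated data 161, 169 and 170 of 200 genes changed by 2 on the log2 scale were called in the Fip200, Atg5 and Atg7 KO comparisons, with 15, 17 and 11 false calls among 11830, 11845 and 11821 genes. Smaller changes were not simulated, so these counts do not give the share recovered at the size of the receptor differences.

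The 9 receptors, the lists and the alternatives were chosen with earlier results of these data known. Named beside the receptors were the targeted genes, of each other list up to 3 genes per comparison with the largest difference among those past a limit, the partners Fth1, Ftl1, Tbk1 and Map1lc3b, and the 3 genes most like each receptor that passed a limit. Not every gene of that rule is named in the text. The other lists, beside those described, held markers of lymphatic, fibroblast, mural and blood cells. Alternatives were a pseudocount of 0.1, no filter, median-of-ratios scaling, a replicate block, the prefix as a term, voom on recovered reads, all 12 libraries in 1 fit, and leaving out each library. Replicate numbers did not pair the libraries, since same-numbered libraries of control and KO had correlations of their deviations between -0.22 and 0.08 over 12233 genes. Promoter windows came from RefSeq on GRCm38.p6 for 8 of the 9 receptors. Fits ran in limma 3.58.1 under R 4.3.3. Tables were made with pandas 2.3.3, exact tests with scipy 1.17.1 and figures with matplotlib 3.10.9, under Python 3.11.15 with numpy 2.4.6.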

Additional observations from a re-analysis of the deposited data

How the results depend on the processing

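Of 267 values of single receptors under settings other than leaving out a library, 252 kept their direction and their side of the limit, 7 lost it, 1 gained it and 7 turned sign. All 7 turns came in the fit with a term for the prefix of the library names. Atg7 KO cells were tied to control there only through Atg5 KO replicate 3, the only library of another group with the third prefix. The cause of the turns was not tested. In that fit the log2 differences from control in Atg7 KO cells were 0.51 for Sqstm1, 0.043 for Optn, 0.11 for Tax1bp1 and -0.14 for Bnip3, that of Sqstm1 in the mean of the KO groups was 0.031, and Optn differed by 0.034 for Atg5 KO against Fip200 KO and by 1.12 for Atg7 KO against Fip200 KO. The number of receptors called was 0 in that fit for Atg5 KO, Atg7 KO and the mean, and all calls over all genes in it numbered 45 lower and 2 higher for Fip200 KO, 411 lower and 252 higher for Atg5 KO, and 30 lower and 8 higher for Atg7 KO against control. With 1 library left out, the called receptors stayed at 0 in Fip200 KO and at 1 in the other comparisons with control. The log2 differences then changed sign within these ranges: in Fip200 KO cells, Sqstm1 from -0.84 to 0.11, Bnip3l from -0.0073 to 0.42, Fundc1 from -0.19 to 0.12 and Fth1 from -0.87 to 0.14. In Atg5 KO cells Calcoco1 ranged from -0.13 to 0.088. In Atg7 KO cells Sqstm1 ranged from -0.29 to 0.049, Tax1bp1 from -0.17 to 0.20, Ncoa4 from -0.24 to 0.072, Bnip3 from -0.094 to 0.65 and Bnip3l from -0.10 to 0.24. In the mean Ncoa4 ranged from -0.19 to 0.072 and Bnip3l from -0.0054 to 0.23, and Optn ranged from -0.74 to 0.013 for Atg7 KO against Fip200 KO and from -0.18 to 0.49 for Atg7 KO against Atg5 KO. With a replicate block, although the numbers do not pair the libraries, Optn stayed called in Atg5 KO and Atg7 KO cells (limma adjusted p = 0.030 and 0.046), 1 receptor in place of 2 passed the limit on p in each, and all calls in Fip200 KO cells went from 193 lower and 41 higher to 80 and 13.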
